A study of Mus musculus with 2 samples.

Results

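Cycling fibroblasts without high Prg4 were the cells of the amputated digit that carried a fibroblast receptor gene and most of a set of mitotic genes, without markers of tendon, nerve sheath, vessel, cartilage or bone. A barcode was counted as a member when it had more than 200 and fewer than 7500 detected genes, under 15% mitochondrial UMIs (unique molecular identifiers, each 1 captured transcript), at least 1 UMI of Pdgfra, at least 1 UMI in 5 or more of the 8 genes Top2a, Mki67, Birc5, Cenpf, Ube2c, Cdk1, Nusap1 and Tpx2, under 10 UMIs of Prg4 and 0 UMIs of Tnmd, Sox10, Pecam1, Acan and Ibsp. The members were thus chosen by measured values, the UMIs of these genes, and those values are given as a description only. By this rule 240 cells were members, 197 in the FGF8 and 43 in the BSA library, of 9967 cells that passed the limits on genes and mitochondrial share and 10952 barcodes in all. Comparison cells met the same limits and had no UMI of the 8 mitotic genes, which gave 410 cells in the FGF8 and 380 in the BSA library. A further 531 and 177 cells had 1 to 4 of the 8 genes and belonged to neither class.

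The cells came from neonatal mice, taken here to be of the outbred ICR strain with no engineered allele. The study also used a Prg4 Cre reporter line for lineage tracing, and its sequencing methods name no strain or genotype. In both groups hindlimb digits 2 and 4 were amputated through the middle phalanx (P2) at postnatal day 3 (PN3), a bead was implanted in the wound at PN7, and tissue distal to the stump was collected 24 h later at PN8, with the epithelium removed before dissociation. The bead carried FGF8 at 500 ng/µl in the FGF8 group and 0.1% BSA in the control group, and each group was 1 library pooled from 20 digits of 5 mice, males and females mixed. Digits that would and would not have regenerated after FGF8 may both be in that pool. With 1 library per treatment there was no replicate and no test between treatments was possible, so values for both libraries are given with 95% intervals that cover counting error only. The FGF8 library held 124889213 UMIs and the BSA library 67739460, with medians of 12251 and 15377 UMIs per cell over the cells that passed the limits. Cells calling as female, with Xist and without Y-linked transcripts, made up 26.3% of the sex-called cycling fibroblasts in the FGF8 and 76.9% in the BSA library, so treatment and the mix of sexes cannot be told apart in the pooled values. No barcode of a cycling fibroblast occurred in both libraries, and 6 barcodes in all did.

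Fibroblasts are the matrix-producing cells of connective tissue, and Pdgfra encodes a receptor for platelet-derived growth factors that marks most of them. A cell that divides first makes replication proteins and histones in S phase, and later in G2 and mitosis it makes proteins that condense, attach and separate chromosomes. Top2a untangles sister DNA, Mki67 coats mitotic chromosomes, Birc5 and Cdk1 belong to mitotic kinase complexes, Cenpf binds kinetochores, Ube2c feeds the anaphase-promoting complex, and Nusap1 and Tpx2 organise spindle microtubules. Fibroblasts of a healing digit divide while they also lay down provisional matrix, and FGF ligands signal through receptor tyrosine kinases to the ERK pathway and Ets factors.

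Mitotic genes as a class are known to share 2 short promoter elements, the cell cycle genes homology region (CHR), which is bound by the DREAM and MYB complexes, and the CCAAT box, which is bound by NF-Y. Promoters of 3 of the genes that chose the cells are printed to show these elements beside a replication gene, Mcm5, that peaks earlier in the cycle. Each run is the 250 bases before and 50 after a RefSeq gene start, from the RefSeq table of build GRCm38.p6, placed on GRCm39 by exact match and written 5′ to 3′ along the gene. Capitals mark TTTGAA or TTCAAA, the CHR on either strand, and CCAAT or ATTGG, the CCAAT box on either strand.
Top2a promoter, chr11:98914966-98915265, minus strand: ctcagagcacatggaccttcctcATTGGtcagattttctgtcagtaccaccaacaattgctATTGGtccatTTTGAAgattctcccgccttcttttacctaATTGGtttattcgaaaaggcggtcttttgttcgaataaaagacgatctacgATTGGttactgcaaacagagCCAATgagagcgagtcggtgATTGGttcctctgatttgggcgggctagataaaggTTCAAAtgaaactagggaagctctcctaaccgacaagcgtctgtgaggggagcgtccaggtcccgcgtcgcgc
Ube2c promoter, chr2:164611599-164611898, plus strand: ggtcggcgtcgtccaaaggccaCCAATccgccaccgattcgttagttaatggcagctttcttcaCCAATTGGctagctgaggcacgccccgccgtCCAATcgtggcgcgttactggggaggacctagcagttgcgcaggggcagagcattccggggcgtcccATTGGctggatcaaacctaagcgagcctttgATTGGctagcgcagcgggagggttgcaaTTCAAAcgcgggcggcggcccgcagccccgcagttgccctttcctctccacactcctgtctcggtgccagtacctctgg
Cdk1 promoter, chr10:69188693-69188992, minus strand: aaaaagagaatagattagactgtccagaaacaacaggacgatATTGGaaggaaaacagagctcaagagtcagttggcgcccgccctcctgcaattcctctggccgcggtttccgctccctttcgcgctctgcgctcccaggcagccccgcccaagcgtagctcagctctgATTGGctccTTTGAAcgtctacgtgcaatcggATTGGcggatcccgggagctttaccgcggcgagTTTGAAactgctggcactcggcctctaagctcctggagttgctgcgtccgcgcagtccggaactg
Mcm5 promoter, chr8:75835887-75836186, plus strand: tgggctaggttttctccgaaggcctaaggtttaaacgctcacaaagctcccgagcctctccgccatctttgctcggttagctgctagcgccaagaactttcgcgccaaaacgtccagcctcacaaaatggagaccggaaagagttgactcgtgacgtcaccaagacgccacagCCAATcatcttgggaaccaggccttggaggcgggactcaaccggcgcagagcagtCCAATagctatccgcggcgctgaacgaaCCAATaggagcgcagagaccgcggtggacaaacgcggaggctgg

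The Top2a run held 2 CHR matches and 6 CCAAT matches, the Ube2c run 1 and 6, of which 2 CCAAT matches overlapped on opposite strands, and the Cdk1 run 2 and 3 with 1 match to an E2F site (TTTCCCGC, TTTCGCGC, TTTGGCGC or TTTGCCGC on either strand). The Mcm5 run held no CHR match, 3 CCAAT matches and 2 E2F matches. Of the 8 genes of the rule, 7 had a promoter in the table and 5 of those held a CHR match, against 18.1% of all 27025 promoters. Among G2/M genes outside the rule 27 of 40 promoters held one (67.5%), among S phase genes 4 of 31 (12.9%) and among replication histone genes 26 of 57 (45.6%). E2F matches were present in 12 of 31 S phase promoters (38.7%) and 1 of 40 G2/M promoters, against 2.32% of all promoters. These matches describe letters in a window and were not linked to binding in these cells.

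Values of the genes in the rule describe the members. Pdgfra had a median of 6 UMIs per cycling fibroblast in the FGF8 and 4 in the BSA library, with 1 UMI in 30 and 8 of the cells. All 12 general fibroblast markers, a list led by Col3a1, were detected, and 99.5% and 97.7% of cycling fibroblasts had at least 10 UMIs of them. Among the 197 FGF8 members, 112 had all 8 mitotic genes, 30 had 7, 27 had 6 and 28 had 5. In the BSA library the same numbers were 24, 8, 3 and 8. At the edge of the rule, cells with 4 of the genes had a median of 7.5 UMIs of the set and cells with 5 had a median of 15, in both libraries. For Prg4, a joint lubricant gene, the highest member had 9 UMIs in the FGF8 and 3 in the BSA library, and the lowest cells left out by that limit had 10 and 15. At least 1 UMI of Prg4 was present in 48.7% of cycling fibroblasts and 37.3% of comparison cells with FGF8, and in 11.6% and 6.84% with BSA.

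**Figure D1:**
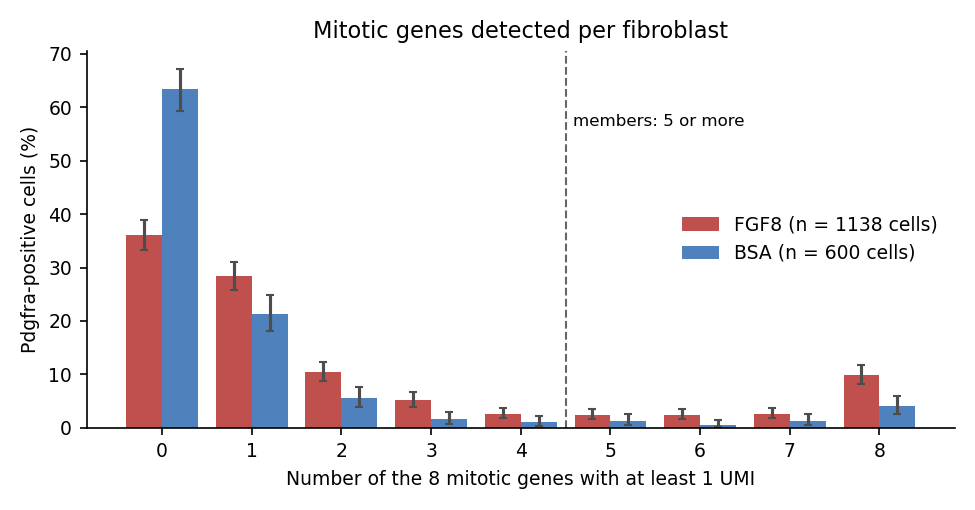
Percentage of Pdgfra-positive cells within the limits (y axis) by how many of the 8 mitotic genes each had (x axis), for 1138 FGF8 and 600 BSA cells, with exact 95% intervals as bars and a dashed line at the limit of 5 genes. Each number from 4 to 7 genes held at most 2.64% of FGF8 and 1.33% of BSA cells, and 9.84% of FGF8 and 4.00% of BSA cells had all 8.

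Cycling fibroblasts were a larger share of the fibroblasts in the FGF8 library. They made up 197 of 1138 Pdgfra-positive cells within the limits, or 17.3% (15.2 to 19.6, exact Clopper-Pearson), in the FGF8 and 43 of 600, or 7.17% (5.23 to 9.53), in the BSA library, a ratio of 2.42. Cells with all 8 genes made up 9.84% and 4.00%, a ratio of 2.46. Among female-called cells the shares were 19.4% of 232 and 7.41% of 405, and among male-called cells 18.7% of 674 and 8.11% of 111, so the share was more than 2-fold higher with FGF8 in each sex. Thinning every cell to 5000 UMIs before applying the rule gave 15% of 991 and 5.55% of 577 cells. Kept cells with no Pdgfra UMI had 5 or more of the 8 genes in 9.78% of 3557 and 9.55% of 1675 cells, a ratio of 1.02. These cells are a mix of types and may include fibroblasts in which Pdgfra was missed. The share describes cells recovered after dissociation, and the 2 shares each came from 1 library.

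The limits on other genes took most mitotic Pdgfra-positive cells out, so the members were the minority without those transcripts. Of 967 cells with 5 or more mitotic genes in the FGF8 and 203 in the BSA library, the Prg4 limit left 608 and 179, the tendon gene Tnmd left 466 and 125, the nerve sheath gene Sox10 left 459 and 124, the endothelial gene Pecam1 left 417 and 99, the cartilage gene Acan left 207 and 45, and the bone gene Ibsp left 197 and 43. At least 1 Acan UMI was present in 63.0% and 55.2% of the mitotic Pdgfra-positive cells, against 27.1% and 26.9% of those with no mitotic gene. After thinning every cell to 5000 UMIs these shares were 37.8% and 39.5% against 16.7% and 16.0%, and macrophage-marked cells, with no Pdgfra and at least 50 UMIs of macrophage markers, had 4.91% and 0 of 210. The fibroblast shares thus lay above those of a cell type that should lack Acan. Without the exclusion genes the ratio of the 2 shares was 1.93. Among cells with 10 or more UMIs of Prg4, 68.0% of 528 and 30.4% of 79 had 5 or more mitotic genes, a ratio of 2.24.

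Cycling fibroblasts had more UMIs per barcode than comparison cells, a difference that the rule favours, since detecting 5 genes needs depth and missing all 8 is more likely without it. Their median was 30012 UMIs in the FGF8 library, from 1673 to 56436, and 27999 in the BSA library, from 2364 to 51913, whereas comparison cells had medians of 11484 and 16896. Detected genes were 6011 and 5979 per cycling fibroblast at the median, and mitochondrial UMIs 2.04% and 2.23%. The counts behind the summed values were 5831148 UMIs for cycling fibroblasts with FGF8 and 1213782 for those with BSA, 4676208 and 6242251 for the comparison cells. BSA cycling fibroblasts thus had the lowest depth of the 4 sums and set the precision of the comparisons between treatments.

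Markers of other cells were present in both classes, and their part in the ratios below was not tested beyond leaving out the cells that carried them. At least 10 UMIs of 1 of 7 marker lists (macrophage, neutrophil, mast cell, erythroid, endothelial, Schwann cell or keratinocyte) occurred in 34 FGF8 (17.3%) and 5 BSA cycling fibroblasts (11.6%), and in 56 (13.7%) and 18 (4.74%) comparison cells. Of these cells, 12 FGF8 and 4 BSA cycling fibroblasts had a single Pdgfra UMI. More macrophage than fibroblast marker UMIs were found in 8 FGF8 and 2 BSA members, which goes against the name fibroblast for those cells. Macrophage markers summed to 540 CPM (UMIs of a gene or list per 1000000 UMIs) in FGF8 cycling fibroblasts and 746 CPM in BSA ones, with all 8 markers detected and Lyz2 the most abundant, and 1 cell held 66.1% of the BSA sum. In the comparison cells the same markers summed to 335 and 15.5 CPM. Erythroid markers, led by Hbb-bs, summed to 1867 and 102 CPM in cycling fibroblasts and 20985 and 2896 CPM in comparison cells, and 1 cell held 50.8% of the FGF8 cycling sum. Pericyte and smooth muscle markers were at 447 and 372 CPM against 216 and 205 CPM, mostly Acta2, which contractile fibroblasts also make. Keratinocyte markers were at 169 and 88.2 CPM, neutrophil markers at 41.0 and 23.9 CPM and endothelial markers at 29.3 and 81.6 CPM in the cycling fibroblasts. Chondrocyte markers were at 21.3 and 19.8 CPM, and Schwann cell, osteoblast and mast cell markers lower still. Ly6g, which defines neutrophils, Fcer1a, which defines mast cells, and Bglap2, a bone matrix gene, were at 0 in the cycling fibroblasts of both libraries, and the rule itself had removed Sox10, Acan, Ibsp and Pecam1.

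Levels of cycle genes were summed over 2 gene lists outside the rule, S phase genes and G2/M genes. Summed S phase genes were at 2912 CPM in FGF8 and 3499 CPM in BSA cycling fibroblasts, against 704 and 635 CPM in comparison cells. G2/M genes were at 7079 and 7966 CPM against 810 and 704 CPM. By cell, 34 of 197 cycling fibroblasts with FGF8 (17.3%, 12.3 to 23.3) and 10 of 43 with BSA (23.3%, 11.8 to 38.6) had a higher summed S phase than G2/M level, and these intervals overlapped. The lists differ in size and the median comparison cell also had a higher G2/M sum, so the line of equal levels does not assign a phase. Cells with 5 or 6 of the 8 genes had median G2/M levels of 3909 and 3122 CPM, cells with 7 had 4764 and 3520 CPM, and cells with all 8 had 8994 and 9103 CPM. Replication histone genes, whose transcripts normally lack a poly(A) tail and are then poorly captured, had medians of 549 and 735 CPM in cells with 5 or 6 genes and 5954 and 11904 CPM in cells with all 8. Depth rose along the same series, to medians of 33789 and 33841 UMIs in cells with all 8 genes.

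**Figure D2:**
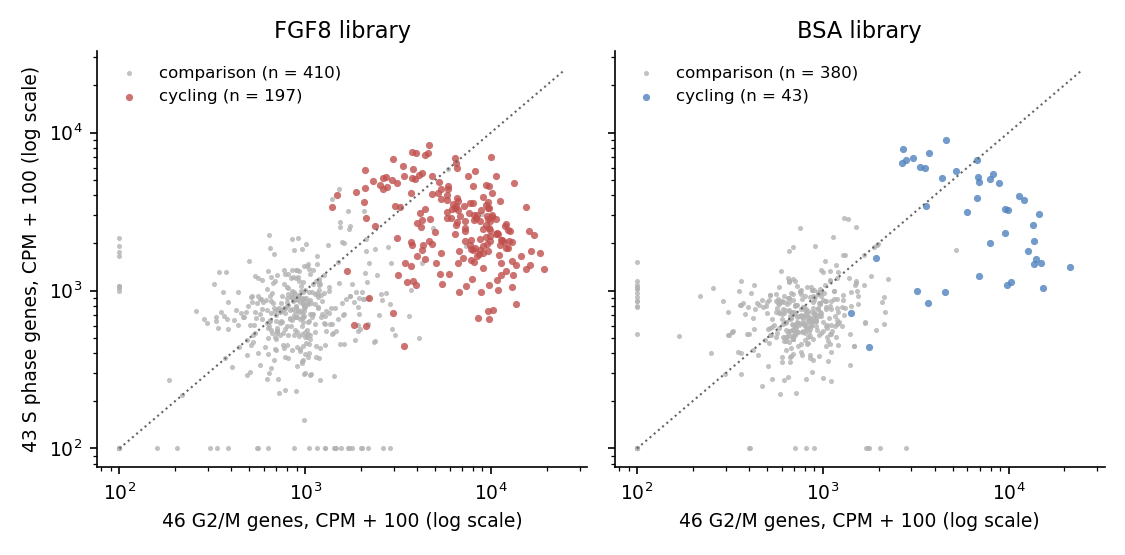
Summed level of 43 S phase genes (y axis, CPM + 100, log scale) against that of 46 G2/M genes outside the rule (x axis, CPM + 100, log scale) in each cycling fibroblast (coloured) and comparison cell (grey), by library. Comparison cells lie at medians of 632 and 592 CPM for S and 815 and 665 CPM for G2/M, and 34 FGF8 and 10 BSA cycling fibroblasts lie above the dotted line of equal levels.

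Genes of mitosis and replication had large ratios of cycling fibroblasts over comparison cells, which the rule made likely, so they are described without a reading. As a background, among genes with at least 50 UMIs 8.22% of 11153 were more than 2-fold higher and 10.8% more than 2-fold lower in cycling fibroblasts of the FGF8 library, and 7.07% and 7.78% of 10240 in the BSA library. Lists took genes with at least 10 UMIs, for which these shares were 9.92% and 15.4% of 14785 and 10.2% and 10.6% of 13716. Ratios above 0 made up 43.1% of these genes in the FGF8 and 47.7% in the BSA library. Median log2 ratios, cycling over comparison in FGF8 and then BSA, were 4.74 and 6.15 for the G2/M genes, 4.86 and 6.12 for kinetochore and checkpoint genes, 5.04 and 6.51 for cytokinesis and spindle motor genes and 3.64 and 5.21 for condensin and cohesion genes. Replication histone genes had medians of 3.76 and 5.11, S phase genes 2.38 and 2.78, and origin licensing and fork genes 2.27 and 2.61. All of these medians were positive, and the 8 genes of the rule are mitotic.

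Outside the cycle lists, the genes with the highest ratios included known partners of replication and division. Pclaf, which binds the replication clamp PCNA, had log2 ratios of 5.99 in the FGF8 and 7.5 in the BSA library. Diaph3, an actin nucleator of the dividing cortex, had 5.45 and 5.66, and Stmn1, which destabilises microtubules in spindle assembly, had 3.86 and 5.12. Lamin B1 (Lmnb1), the histone variants H2ax and H2az1, the tubulins Tubb6, Tuba1b and Tuba1c, and the nucleolar redox protein gene Selenoh completed the 10 highest, at 2.38 to 4.16 across both libraries. The 10 lowest included Ncam2, a neural adhesion molecule (−3.63 and −4.39), Nlgn1, a synaptic adhesion molecule (−3.66 and −3.30), and Cilp, a matrix protein of cartilage and tendon (−3.24 and −3.05). Rgs6 (−5.61 and −2.68), which quenches G protein signals, Nkain3 (−5.0 and −2.60) and 6330403K07Rik (−3.24 and −2.43) were also among them. The BSA cycling values of these genes rested on few UMIs, from 2 for Ncam2 to 12 for 6330403K07Rik. For Cilp and Rgs6, 1 cell held 77.8% and 80% of them. The other 4 lowest were globin genes, and the Hbb-bs ratios went to −0.77 and −0.47 once cells with 10 or more UMIs of other types were left out.

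Brakes of the cycle were not uniformly low in the dividing cells. Cdkn1c, which encodes the p57 inhibitor of G1 kinases, was at 122 and 255 CPM in FGF8 and BSA cycling fibroblasts and at 496 and 790 CPM in comparison cells, log2 ratios of −2.03 and −1.63. In contrast Cdkn2c and Cdkn2d, INK4 inhibitors of Cdk4 and Cdk6, were higher in the cycling cells, with log2 ratios of 1.48 and 2.36 for Cdkn2c and 2.17 and 2.54 for Cdkn2d. The list of CDK inhibitors and pocket proteins had medians of −0.28 and −0.06, and p53 target genes −0.08 and 0.05, against −0.13 and −0.04 for all genes with at least 10 UMIs. G1 cyclins, Myc and E2F genes had medians of 1.19 and 1.60.

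Matrix genes had lower CPM in the dividing cells of both libraries. All 12 measured fibrillar and associated collagens had negative ratios in each library, with medians of −1.04 and −0.75, and 8 and 2 of them were more than 2-fold lower. Col1a1, a chain of type I collagen, was at 3552 CPM in FGF8 and 7913 CPM in BSA cycling fibroblasts against 10554 and 16326 CPM in comparison cells, log2 ratios of −1.57 and −1.04. Col3a1, which forms type III collagen, had −1.49 and −0.82, and Col14a1, which binds to fibril surfaces, −1.93 and −1.14. Small proteoglycan and elastic fibre genes had medians of −1.0 and −0.81, with 21 of 22 below 0 in each library. The lowest well-measured members included Ogn (−3.22 and −2.33) and Aspn (−2.07 and −1.52), leucine-rich proteoglycans that bind collagen. Matrix crosslinking and wound matrix genes had smaller medians of −0.45 and −0.43, and digit and limb transcription factors −0.40 and −0.45.

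Counted in UMIs per cell instead of CPM, the collagens were nearly level between the classes with FGF8, while with BSA the cycling median was lower. Cycling fibroblasts had a mean of 532 collagen UMIs per cell and comparison cells 533 with FGF8, and with BSA the means were 960 and 1018. Medians were 441 and 434.5 in the FGF8 and 669 and 846.5 in the BSA library. The lower CPM of collagens in dividing cells therefore went with a larger total of UMIs, and a change in collagen RNA cannot be told apart from a growth of all other RNA in a relative unit. Limb transcription factors had higher means per cell in the members, 46.6 against 20.5 UMIs with FGF8 and 47.7 against 31.4 with BSA. Wound matrix genes had 266 against 189 and 335 against 314, although their BSA medians were 268 and 276. Proteoglycan and elastic fibre genes had 245 against 208 with FGF8 and 318 against 340 with BSA. Ogn differed on both scales, with means of 0.528 and 1.89 UMIs per cell in the FGF8 and 1.33 and 3.88 in the BSA library. The means of Cdkn1c were also lower in cycling fibroblasts, at 3.6 and 5.66 UMIs per cell and 7.19 and 13.0. Its medians were not, at 2 and 2 UMIs per cell with FGF8 and 4 and 3.5 with BSA.

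Of 4 programmes that mark other fibroblast populations of the digit, 3 had negative medians in both libraries. The programme of Chodl and Sema3a, which are its 2 genes, had median log2 ratios of −3.24 in the FGF8 and −1.26 in the BSA library, the tendon programme −1.48 and −1.53 (Tnmd itself being excluded by the rule), and the Dlk1, Lpl and Pi16 programme −1.04 and −0.65. Within the last, Dlk1 had positive ratios of 0.55 and 0.27, and the summed programme was higher in UMIs per cell in the members, at means of 15.4 against 6.01 with FGF8 and 21.2 against 12.9 with BSA. The tendon programme was also higher per cell in the FGF8 members, at means of 9.98 against 7.10, but lower in the BSA members, at 6.51 against 9.56. The Chodl and Sema3a programme was lower per cell in both, at 3.15 against 9.53 and 9.42 against 12.9. Coch and Ednrb, the fourth programme, had a median of −1.60 with FGF8 and 0.81 with BSA, and the BSA median was −0.36 without cells that carried markers of other types. Chodl, a membrane lectin, was at 21.6 and 124 CPM in cycling fibroblasts against 317 and 314 CPM in comparison cells, and 1 cell held 34.9% of its FGF8 and 41.1% of its BSA cycling UMIs. Sema3a, a secreted axon repellent, was at 84.7 and 209 CPM against 518 and 474 CPM. Among genes for growth, all 20 ribosome biogenesis genes had positive ratios in the FGF8 and 16 of 20 in the BSA library, with medians of 0.86 and 0.44. Glycolysis genes had medians of 0.52 and 0.66. FGF feedback and Ets genes had medians of 0.32 and 0.01, FGF receptors −0.47 and −0.59, and chemokines and IL-6 family genes 1.04 and 0.35.

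**Figure D3:**
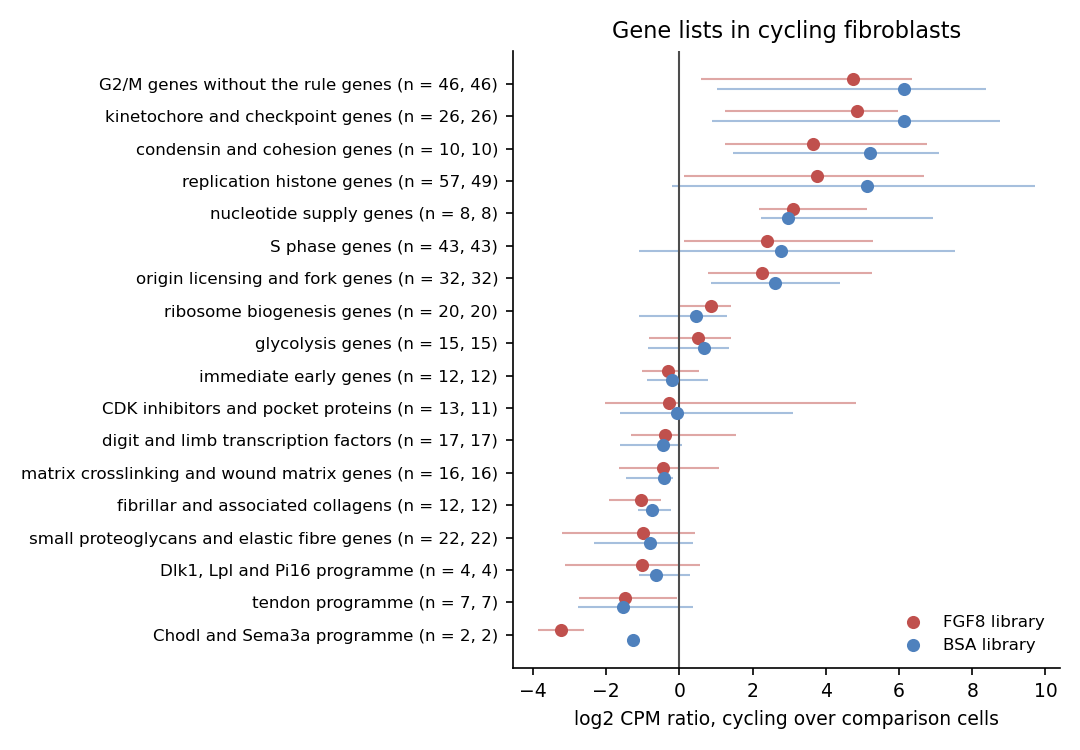
Log2 CPM ratio of cycling over comparison cells (x axis) for 18 gene lists (y axis, with the number of genes measured in the FGF8 and BSA libraries), as the median (point) and the range from the lowest to the highest gene (line). Cycle lists lie to the right, with G2/M genes at 4.74 and 6.15, and the collagens lie left of 0 at −1.04 and −0.75.

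FGF8 and BSA cycling fibroblasts were then compared with each other, with the same ratio in the comparison cells given beside it. Among genes with at least 50 UMIs, 4.6% of 9878 were more than 2-fold higher and 4.57% more than 2-fold lower in FGF8 cycling fibroblasts, which amounts to 454 and 451 genes, and in comparison cells 2.49% and 0.558% of 11102. The balance of higher and lower genes changed with the cells and depth used, with 222 higher and 128 lower of 4134 tested after thinning every cell to 5000 UMIs, 262 and 434 of 6311 in cells called female and 714 and 304 of 8344 in cells called male. For gene lists, which took genes with at least 10 UMIs, the backgrounds were 7.56% higher and 8.93% lower of 13577 genes in cycling fibroblasts and 7.6% and 2.61% of 14676 in comparison cells, with medians of −0.08 and 0.01 over all genes. Ratios above 0 made up 44.1% of these genes in cycling fibroblasts and 52.2% in comparison cells.

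Cycle genes of the members had slightly lower CPM in the FGF8 library, where more cells were in cycle. G2/M genes had a median log2 ratio of −0.28, with 36 below 0 and 10 above, whereas in comparison cells their median was 0.59. S phase genes had −0.26, with 36 below and 7 above, and kinetochore genes −0.46, with 24 below and 2 above. Replication histone genes had the lowest median, −0.73, with 49 of 58 below 0 and 16 of them more than 2-fold lower, but the median was −0.081 in cells called male alone. Within the histone list H1f5 was at 1681 and 2324 CPM and H1f4 at 748 and 1348 CPM, both less than 2-fold lower. H2ac22 had a log2 ratio of −1.37 at 87.3 and 226 CPM. Histone and tubulin genes have near-identical copies, so values of single members are uncertain. Not all mitotic genes were lower, since Plk1, the kinase of mitotic entry, was at 112 and 75 CPM and Cks1b, a Cdk-binding subunit, at 311 and 208 CPM, log2 ratios of 0.57 and 0.58. The 8 genes of the rule lay between −0.71 for Nusap1 and 0.06 for Birc5, and this spread is given as a description. The G2/M median turned to 0.27 under narrower cell limits (more than 500 and fewer than 6000 genes and under 10% mitochondrial UMIs).

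Regulators of G1 entry were mixed. Myc, the growth transcription factor, was at 31.2 CPM in FGF8 and 7.41 CPM in BSA cycling fibroblasts, a log2 ratio of 2.07 (1.12 to 3.23), and at 19.5 and 16.2 CPM in comparison cells. Ccnd1, the cyclin that answers growth factors, was at 213 and 124 CPM, a log2 ratio of 0.79. E2f2 had −1.45, and 10 of the 15 G1 genes were below 0, with a list median of −0.20. Cdkn1c was lower in the FGF8 library in both classes, with log2 ratios of −1.07 (−1.26 to −0.87) in cycling and −0.67 in comparison cells. The cycling ratio lay between −1.50 without the upper gene limit and −0.23 after thinning with classes from thinned counts. It was −0.66 in cells called male and −0.61 under the narrower cell limits, both short of 2-fold.

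Lists of ribosome production and sugar use had positive medians in the dividing cells of the FGF8 library, with most members short of 2-fold. All 20 ribosome biogenesis genes had positive log2 ratios, with a median of 0.62 and 4 past 2-fold, against a median of 0.18 in the comparison cells. Npm1, a nucleolar chaperone, was at 1679 and 954 CPM, a log2 ratio of 0.82 in cycling and 0.15 in comparison cells. Gnl3, a nucleolar GTPase, was at 104 and 36.3 CPM, 1.52 and 0.15. Glycolysis genes had a median of 0.47 with 14 above 0, 1 below and 2 of 15 past 2-fold, against 0.27 in comparison cells. Pkm, which makes the last enzyme of glycolysis, was at 599 and 303 CPM, a log2 ratio of 0.98, and Hk2, an enzyme of the first step, had 1.73. Leaving out cells with markers of other types gave list medians of 0.54 and 0.59.

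FGF feedback and Ets genes, which ERK signalling is known to induce, were mostly higher in FGF8 cycling fibroblasts. Of 16 measured, 13 were above 0 and 7 past 2-fold, with a median of 0.78, and in comparison cells the median was 0.31. Ier3, an immediate early survival gene, was at 408 and 115 CPM in cycling fibroblasts, a log2 ratio of 1.82 (1.58 to 2.08), and at 219 and 121 CPM in comparison cells, a ratio of 0.85. Fosl1, an AP-1 subunit made after ERK activation, was at 65.0 and 18.9 CPM (1.78, 1.17 to 2.45) and at 11.8 and 11.9 CPM in comparison cells. The Ets factors Etv5 and Etv4 had 1.54 and 0.97, and Etv4 turned to −0.22 after thinning with classes from thinned counts. Etv5 lay between 0.37 without the exclusion genes and 2.24 in cells called female, with 0.40 in those called male. Dusp6, the phosphatase that turns off ERK, had 0.50, Spry1, an inhibitor of receptor signalling, 0.01, and Il17rd, another inhibitor, was lowest at −0.79. Dusp6 had 2.22 in cells called female and −0.84 in those called male, so it had no common direction, and the median of the list was 0.13 under the narrower cell limits. Among the receptors Fgfr1 had the most UMIs, at 189 and 167 CPM, a log2 ratio of 0.18, and the median of the receptor list was −0.15. Immediate early genes had a median of 0.23 in cycling and 0.40 in comparison cells.

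Lists of limb transcription factors and of IGF and oncofetal growth genes had no common direction. The limb list had a median of −0.36, with 8 above and 9 below 0, and the IGF and oncofetal list 0.02, with 9 above and 8 below, and 3 genes of each were more than 2-fold higher. Hmga2 (ENSMUSG00000056758, chr10:120197173-120313095, minus strand, GRCm39), which encodes an architectural chromatin protein of embryonic tissue, was at 241 CPM in FGF8 and 31.3 CPM in BSA cycling fibroblasts, a log2 ratio of 2.95 (2.48 to 3.45), and at 17.3 and 12.3 CPM in comparison cells. Its mean was 7.14 UMIs per cell against 0.884, while the median cell had 1 and 0, so the level was carried by a part of the cells. Runx2, the master factor of osteoblast commitment, was at 102 and 32.1 CPM, a log2 ratio of 1.67 (1.20 to 2.18), and at 35.3 and 30.8 CPM in comparison cells. Sox9, the factor of cartilage precursors, was at 27.6 and 9.89 CPM, a log2 ratio of 1.48. Prrx1, a marker of limb mesenchyme, was at 514 and 501 CPM, a ratio of 0.04. Igfbp3, a secreted carrier of insulin-like growth factors, had 1.28 and Igfbp2, another carrier, −0.95, which turned to 0.51 under the narrower cell limits.

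**Figure D4:**
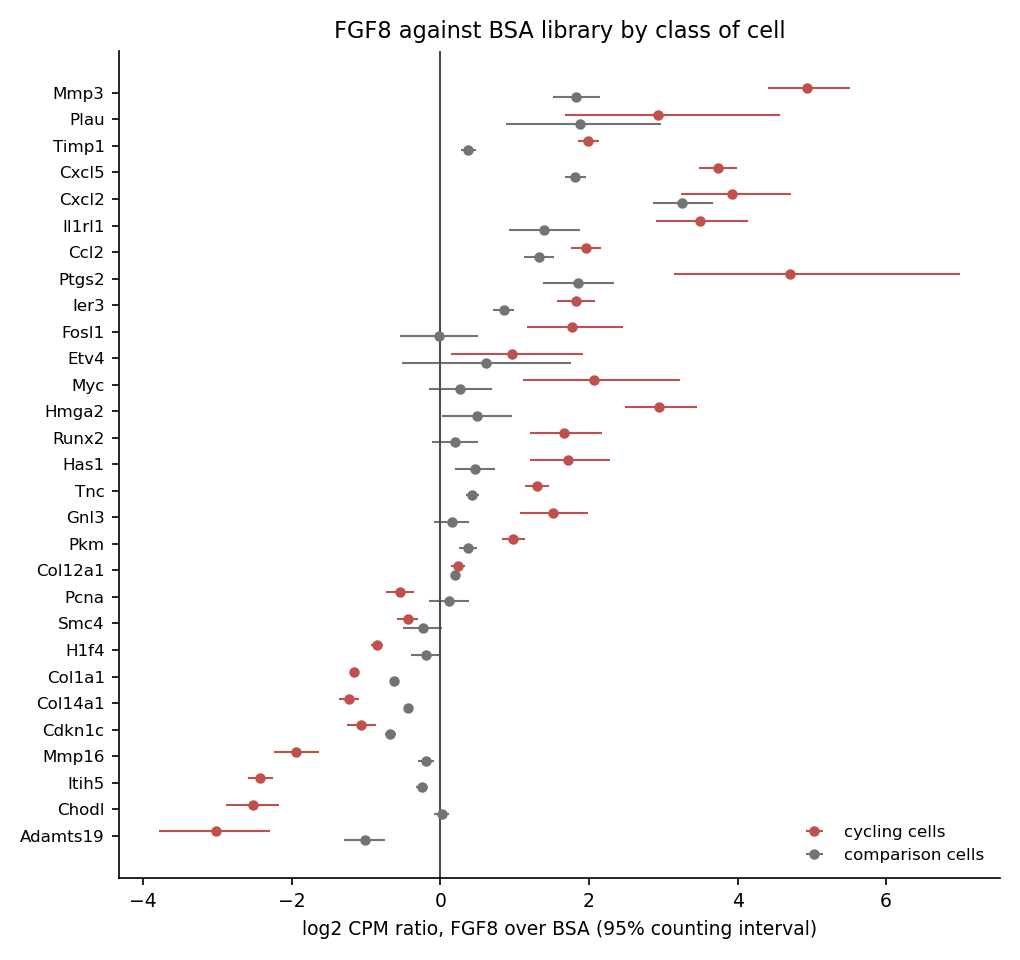
Log2 CPM ratio of FGF8 over BSA (x axis) for single genes (y axis) in cycling fibroblasts and in comparison cells, with bars for 95% counting intervals. In cycling fibroblasts Mmp3 lies at 4.93, Cxcl5 at 3.73, Hmga2 at 2.95 and Timp1 at 1.99, and Col1a1 at −1.16.

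Chemokine and IL-6 family genes had positive medians in the FGF8 library in both classes. Of 20 measured chemokine and IL-6 family genes 14 were above 0 and 11 past 2-fold, with a median of 1.05, close to the 1.00 of comparison cells, where 13 of 18 were above 0. Without the cells that carried markers of other types, 12 of 17 were above 0 in cycling fibroblasts and 9 of 17 in comparison cells, with medians of 1.29 and 1.06. Cxcl5 (ENSMUSG00000029371, chr5:90907186-90909483, plus strand), a neutrophil attractant, was at 1488 and 112 CPM in cycling fibroblasts, a log2 ratio of 3.73 (3.49 to 3.99), and at 329 and 93.4 CPM in comparison cells. Cxcl2, of the same family, was at 213 and 14.0 CPM, a log2 ratio of 3.93, and at 91.5 and 9.61 CPM in comparison cells. Ccl2, a monocyte attractant, had 1.96 and 1.33 in the 2 classes, and Il1rl1, which encodes the receptor for interleukin 33, was at 222 and 19.8 CPM, 3.49 and 1.39. Il6 itself was at 19 and 19.8 CPM. Cxcl10, an interferon-induced chemokine, was lowest of the list at 118 and 238 CPM, and 1 cell held 81.7% of its BSA UMIs.

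Proteases and their inhibitors lay on both sides of 0, with 14 above and 11 below 0 and a median of 0.16. Timp1 (ENSMUSG00000001131, chrX:20736316-20740976, plus strand, GRCm39), a secreted inhibitor of matrix metalloproteinases, was at 1437 CPM in FGF8 and 362 CPM in BSA cycling fibroblasts, a log2 ratio of 1.99 (1.85 to 2.13), and at 323 and 249 CPM in comparison cells, a ratio of 0.38. The ratio of this X-linked gene was 1.84 in cells called female and 2.03 in those called male. Mmp3, or stromelysin, was at 731 and 23.9 CPM, a log2 ratio of 4.93 (4.41 to 5.51), but its BSA value rested on 29 UMIs, 58.6% of them from 1 cell. Plau, the urokinase gene, was at 31.4 and 4.12 CPM, a log2 ratio of 2.93. Its BSA value rested on few UMIs, a mean of 0.116 per cell over 43 cells. On the lower side, Adamts19, a secreted metalloprotease gene, was at 4.46 and 36.3 CPM (−3.02, −3.78 to −2.29), Mmp16, a membrane-bound metalloproteinase, at 35.3 and 135 CPM (−1.94), and Mmp11 at 28.1 and 79.9 CPM (−1.51). Adamts19 was also lower in comparison cells, at −1.02. Its cycling ratio lay between −3.4 in cells called female and −0.63 after thinning with classes from thinned counts. Without the exclusion genes it was −1.60.

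Collagens had negative medians in the FGF8 library in both classes. In cycling fibroblasts 11 of 12 were below 0, with a median of −0.73 and 3 more than 2-fold lower, and in comparison cells 11 of 12 were below 0, with a median of −0.34 and 0 more than 2-fold lower. Col1a1 had −1.16 (−1.19 to −1.12) in cycling fibroblasts and −0.63 in comparison cells, Col3a1 −1.04 and −0.37, and Col14a1 −1.23 and −0.44. Col12a1, at 1076 and 915 CPM, was the exception at 0.23. Per cell, mean collagen UMIs were 532 and 960 in cycling fibroblasts and 533 and 1018 in comparison cells. These means differed between libraries by about the same factor in the 2 classes. Medians were 441 and 669 in cycling fibroblasts and 434.5 and 846.5 in comparison cells, further apart in the latter. Ogn had −1.40 and Aspn −1.04 among the proteoglycans, a list with a median of −0.20.

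Other matrix lists lay on both sides of 0. Wound matrix genes had 9 above and 7 below with a median of 0.08, proteoglycan and elastic fibre genes 8 above and 14 below with 6 more than 2-fold lower, and joint and cavity genes 8 of 10 above with a median of 0.36. Tnc, the tenascin of wounds and tendon, was at 684 and 278 CPM in cycling fibroblasts, a log2 ratio of 1.30 (1.14 to 1.46), and at 491 and 364 CPM in comparison cells, a ratio of 0.43. Ltbp2, an elastic fibre protein with the highest ratio of its list, was at 196 and 62.6 CPM (1.64), and 0.17 in comparison cells. Has1, a hyaluronan synthase, was at 86.8 and 26.4 CPM (1.72), and Thbs4, a tendon and muscle matrix glycoprotein, at 185 and 75 CPM (1.30). The factor Osr2 of the joint list had −1.06.

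By rank alone, the 10 highest and 10 lowest genes held several that came from few cells. Ptgs2, the inducible cyclooxygenase, was at 64.5 and 2.47 CPM, a log2 ratio of 4.71 (3.15 to 6.99) in cycling and 1.86 in comparison cells, but the BSA cycling value rested on 3 UMIs and the ratio was 1.66 after thinning to 5000 UMIs. Hbegf, an EGF receptor ligand, was at 43.7 and 3.30 CPM, with log2 ratios of 3.73 in cycling and −0.92 in comparison cells. It was 1 of the 5 genes whose ratio in cycling cells exceeded that in comparison cells most. The BSA cycling value rested on 4 UMIs, and 1 cell held 65.6% of the 157 UMIs of BSA comparison cells. Its cycling ratio was 1.18 after thinning to 5000 UMIs with classes from full counts, where a BSA count of 0 would enter at the floor of 3 counts. Without the exclusion genes the ratio was 1.31. Gm47080 was at 49.7 CPM in FGF8 and without a UMI in BSA cycling fibroblasts. Rgs5, a pericyte gene found in 11.2% of FGF8 cycling fibroblasts, had 4.75, against 3 UMIs in BSA cycling fibroblasts, and 0.74 in cells called female. Fabp4, a lipid carrier of endothelial cells and adipocytes, had 4.42 (1.91 to 9.74) against 1 BSA UMI. Its 0.62 after thinning to 5000 UMIs also set a BSA count of 0 at the floor of 3 counts. Krt25 and Krt28 had 5.85 and 5.84 against 1 BSA UMI each, with 42.8% and 64.1% of FGF8 UMIs from 1 cell. Hba-a1 and Hbb-bs went to 0.78 and 0.55 without the cells that carried markers of other types. Cd300c2, with 1 BSA UMI among all members, had fewer than 10 UMIs over both libraries without those cells. Its ratio there, −1.34, is therefore not read. The genes for which the cycling ratio fell furthest under the comparison ratio, Lyz2, Lcp1, Pf4, S100a9 and Coro1a, are all genes of blood cells, and Krt25, Prr9, Rgs5 and Krt73 stood beside Hbegf at the other end.

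On the lower side several leading genes differed little between the comparison cells of the libraries. Itih5 (ENSMUSG00000025780, chr2:10158281-10261340, plus strand), whose family binds hyaluronan, was at 95.9 and 514 CPM, a log2 ratio of −2.42 (−2.59 to −2.26), and −0.24 in comparison cells. Lsamp, a neural adhesion molecule, had −2.63 and −0.01, Nkd1, an antagonist of Wnt signalling, −2.15 and 0.00, and Chodl −2.53 and 0.02. Hhip, an antagonist of hedgehog, Limch1, Tmem132c and Tmem100 lay between −2.20 and −2.01. Ccl21a, a lymphatic chemokine, had −7.49 but 53.6% of its BSA UMIs came from 1 cell, and F13a1, a macrophage gene, had −2.05 with 57.1% from 1 cell. The sexes had the same sign for all of these by the rule that chose them, and the sizes differed, as for Lsamp with −3.61 in cells called female and −0.30 in those called male, Itih5 with −2.60 and −1.41 and Chodl with −3.79 and −1.24. Outside that rule Mmp16 had −3.11 and −0.38 and Ogn −2.62 and −0.34, so their ratios were small in cells called male. Cxcl5 had 3.14 and 5.42, Hmga2 3.4 and 3.63 and Col1a1 −1.38 and −0.79. The BSA library held 9 cycling fibroblasts called male. The narrower cell limits, which left 94 and 22 members, gave 1.19 for Timp1, 2.02 for Cxcl5, 0.54 for Ier3, 0.71 for Myc, 0.041 for Col14a1 and 1.67 for Chodl, and without the exclusion genes Timp1 had 0.89 and Runx2 0.25.

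At equal depth the share of cells with a transcript gave the same order for most of these genes. After each cell was thinned to 5000 UMIs, which left 191 FGF8 and 42 BSA cycling fibroblasts and 308 and 317 comparison cells, macrophage-marked cells without Pdgfra served as the background, 346 and 210 of them with medians of 12291.5 and 15635 UMIs before thinning. Timp1 was found in 86.9% of FGF8 and 61.9% of BSA cycling fibroblasts, in 60.7% and 48.6% of comparison cells and in 31.8% and 6.19% of the macrophage-marked cells. For Cxcl5 the shares were 60.2% and 11.9% of cycling fibroblasts, 23.4% and 13.2% of comparison cells and 5.49% and 1.90% of the macrophage-marked cells. The FGF8 share of Cxcl5 in cycling cells was thus far above both other classes, and the BSA share was not above its comparison cells.

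Hmga2 was found in 34.0% and 9.52% of cycling fibroblasts, 4.87% and 3.79% of comparison cells and 6.65% and 3.33% of the macrophage-marked cells, so its comparison shares lay at about the macrophage level. Il1rl1 was found in 30.9% and 9.52%, 5.19% and 1.89%, and 3.18% and 0.476% of the same classes. Ccl2 and Cxcl2 are also made by macrophages, so those cells are no background for them, with Ccl2 in 57.1% and 28.6% of cycling fibroblasts, 15.3% and 8.52% of comparison cells and 48.8% and 36.2% of macrophage-marked cells. Cxcl2 was found in 23.0% and 2.38%, 7.14% and 1.89%, and 16.8% and 12.9% of them, so the part of free RNA in these genes was not tested. Runx2 had 29.8% and 19%, 12.3% and 11.0%, and 8.09% and 7.14%. Mmp3 had 36.1% and 4.76% of cycling fibroblasts and 12% and 4.42% of comparison cells, against 11.8% and 0 of 210 (up to 1.43% at the same floor) of the macrophage-marked cells, so the FGF8 comparison share is not read as expression. Ptgs2 was found in 12% of FGF8 cycling fibroblasts and in 0 of the 42 BSA ones, which at a floor of 3 counts allows a share of up to 7.14% of cells with a UMI. The macrophage-marked shares were 7.23% and 4.29%. Whether macrophage-marked cells make Ptgs2 or Timp1 themselves was not tested, so their shares are no sure background for either gene. Col14a1 was found in 46.6% and 54.8% of cycling fibroblasts and 79.2% and 83.3% of comparison cells, Itih5 in 25.7% and 59.5% against 56.8% and 62.8%, and Ogn in 6.81% and 16.7% against 37.0% and 43.5%, with at most 6.65% of macrophage-marked cells for any of these. Thus Itih5 was less frequent in FGF8 than in BSA dividing cells while the comparison cells of both libraries lay close together.

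**Figure D5:**
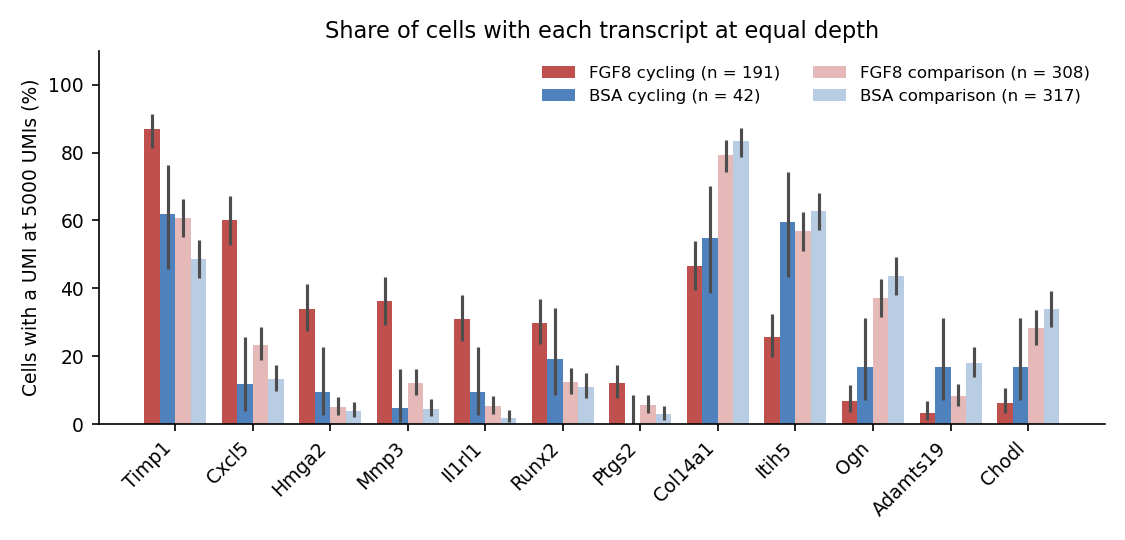
Share of cells with at least 1 UMI (y axis, percent) after thinning each cell to 5000 UMIs, for 12 genes (x axis) in cycling fibroblasts and comparison cells of each library, with exact 95% intervals as lines. Cxcl5 was found in 60.2% of FGF8 and 11.9% of BSA cycling fibroblasts, and Itih5 in 25.7% and 59.5%.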

How the data were processed

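The authors deposited raw UMI counts per gene and barcode for 2 libraries of 10x 3′ chemistry (v3.1), made with Cell Ranger 9.0.0. The submitters' processing notes list GRCm39 and mm10 as builds and Seurat as a tool, and the gene identifiers were used as deposited. Cells were chosen by the limits stated in the report, with Python 3.11.15, numpy 2.4.6, scipy 1.17.1 and pandas 2.3.3. No doublet caller was run, and the limit of 7500 genes is the only guard against doublets. Counts were summed over the cells of a class in each library and scaled to CPM. Ratios have exact conditional 95% counting intervals, and a count of 0 enters at a floor of 3 counts per class. Replicates were lacking, so no test across samples was made and past 2-fold stands in place of a call. Gene lists needed 10 UMIs and backgrounds 50. Ctps1 and Aldoa were not found under those symbols. The members and lists were chosen with earlier results of these data known.

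Named genes were, in each list, the highest, lowest and most abundant with at least 50 UMIs. Across all genes they were the 10 highest and 10 lowest by FGF8 over BSA in cycling fibroblasts, with at least 100 UMIs, in at least 5% of cells, of the same sign in both sexes and not sex-linked. They were also the 10 highest and 10 lowest by cycling over comparison outside the cycle lists, with at least 200 UMIs in each library, and the 5 highest and 5 lowest by the difference of ratios. Other genes named were chosen after their values were seen. Ratio and interval code was tested on simulated data.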

Additional observations from a re-analysis of the deposited data

Results flagged for a closer look

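The limit on detected genes left out barcodes that otherwise matched the cycling fibroblasts. With 7500 or more genes there were 274 barcodes in the FGF8 and 161 in the BSA library, and 216 (78.8%) and 84 (52.2%) of them were Pdgfra-positive with 5 or more of the 8 mitotic genes. All other criteria were met by 20 barcodes in the FGF8 and 14 in the BSA library, a signal in data that the comparisons did not use. Adding them gave 217 and 57 members and a ratio of shares of 2.03 in place of 2.42. Whether these barcodes are single large cells or doublets was not tested.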

How the results depend on the processing

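No paired analysis was possible because each treatment had 1 library. For the ratio of shares, list medians and counts of genes, 89 recomputed values stayed within the interval of the reported one (for counts of genes, within 1.5 times) and 14 moved. The ratio of shares, 2.42, lay between 1.93 and 2.76, except at 4.06 without cells holding 2 or more UMIs of other types' markers, which left 4 and 1 members. At that setting the S phase median was −1.35, the G2/M median 1.10 and 44 of 137 genes were past 2-fold. With more than 500 and fewer than 6000 genes and under 10% mitochondrial UMIs (94 and 22 members) the S phase median was −0.73, the G2/M median 0.27 and 570 of 6537 genes were past 2-fold. The S phase median was −0.54 in cells called female and −0.065 in those called male, and without the exclusion genes the G2/M median was −6.64e-05. Genes past 2-fold, 905 of 9878 tested (9.16%), were 350 of 4134 (8.47%) and 320 of 3375 (9.48%) after thinning with classes from full and thinned counts, 523 of 7935 (6.59%) at a minimum of 100 UMIs and 3360 of 15335 (21.9%) at 1 UMI in each library, where 994 were higher and 2366 lower. The FGF feedback median, 0.78, lay between 0.13 (narrower limits) and 0.94 and the collagen median of cycling over comparison between −1.15 and −0.60. For single genes and other lists 618 values stayed within their interval, 312 moved and 10 reversed. Among single genes past 2-fold as reported, these were Chodl 1.67, Col14a1 0.041 and Cxcl10 4.22 under the narrower cell limits, Hba-a1 −2.20 and Hbb-bs −2.20 without exclusion genes, Sema3a 0.54 and Cxcl10 1.49 in cells called male, Limch1 0.59 after thinning by thinned counts, and Ltbp2 −0.69 and Tnc −1.95 without cells holding 2 or more UMIs of other markers. Of genes not past 2-fold, Etv4 turned to −0.22 after thinning by thinned counts, Igfbp2 to 0.51 under the narrower cell limits and Dusp6 to −0.84 in cells called male, and the protease list median was −0.029 in cells called female. Cd300c2, past 2-fold as reported, had fewer than 10 UMIs without cells holding 10 or more UMIs of other markers. No value for it was counted at that setting. The cause of the reversals was not tested. Leaving out cells with 10 or more such UMIs and dropping the upper gene limit were chosen after seeing the data. The 43 BSA members limit every FGF8 over BSA value.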
